A study of Cricetiscus sungorus with 41 samples.

Results

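RNA polymerase II, and the general factors that load it onto promoters, were followed in blood RNA of Djungarian hamsters through daily torpor. The members were taken by name: every symbol of the table beginning with POLR2 and a letter A to M (subunits of RNA polymerase II), with GTF2 and a letter A to H (TFIIA, TFIIB, TFIIE, TFIIF and TFIIH), or with TAF and a number (TBP-associated factors), and TBP itself. The rule matched 68 of 20220 symbols. Of these, 48 had a count in at least 1 library and 20 stood at 0 in every library.

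The study asked how blood transcripts change in torpor, comparing torpid animals with normothermic ones at the same time of day. Each of the 41 libraries came from the blood of 1 wild-type (WT) animal. HT animals were hypothermic on the sampling day, and were sampled at torpor entry (ZT01, n = 5), at the nadir (ZT04, n = 5), during arousal (ZT07, n = 4) and after torpor (ZT16, n = 4), where ZT counts hours from lights on. The 5 controls had never shown torpor, and their labels give no sampling time, sex or age. NT animals were normothermic on the sampling day (n = 6 at ZT01 and n = 4 at each of the other times). All 36 HT and NT hamsters lived under short photoperiod, were killed with carbon dioxide at an age of 32 ± 4 weeks, and had shown spontaneous torpor on other days, that is a body temperature below 32 °C for 30 min or longer, so an NT animal is a torpor-capable animal on a day without a bout. Sexes were unequal at ZT01 (2 males and 3 females in HT, 4 males and 2 females in NT). They were also unequal at ZT04 (2 males and 3 females in HT, 4 males in NT). At ZT16 they were fully separated (4 females in HT, 4 males in NT), so sex and torpor cannot be told apart there.

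RNA polymerase II transcribes all protein-coding genes. TFIID, built of TBP and the TAFs, recognises the promoter, TFIIA and TFIIB secure TBP and place the polymerase, TFIIF travels with it, and TFIIE brings in TFIIH, which opens the DNA and phosphorylates the tail of POLR2A. In torpid ground squirrels, initiation and elongation of transcription are known to be slowed in the cold. Mature mammalian red cells have no nucleus, so in blood these factors belong mainly to leukocytes and to immature erythroid cells.

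The libraries held 50153600 to 71662267 counts. Haemoglobin genes took 73.7 to 93.8% of them and left 3291472 to 14562786 counts for all other genes. The members together had 3315 to 29404 counts a library, which was 0.0953 to 0.202% of the counts outside haemoglobin. The haemoglobin share did not differ detectably between HT and NT in 2-sided exact permutation tests (ZT01 p = 0.736, ZT04 p = 0.905, ZT07 p = 0.686 and ZT16 p = 0.0571). Lists of markers of lymphocytes, monocytes, neutrophils, platelets and erythroid cells all had counts in every group, with the platelet gene GP1BB and the haemoglobin genes HBA1 and HBM at 0 throughout. In such a mixture, fewer cells of a type and less RNA per cell cannot be told apart. UTY, a Y-linked gene, went against the labelled sex of HT ZT07 replicate 1 (male, 8 counts) and of HT ZT07 replicate 2 (female, 52 counts), while the other 17 males had 15 to 71 counts and the other 17 females 0 to 8. The calls at ZT07 are therefore also given without these 2 libraries. Every fit with sex as a covariate used the labelled sex, also for these 2.

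Levels below are CPM, that is counts relative to library size after scaling by the trimmed mean of M values (TMM), and are compared between animals for 1 gene at a time, because transcript lengths are not in the table. A gene counts as called when its edgeR quasi-likelihood p, adjusted by the Benjamini-Hochberg method over all symbols tested, was below 0.05. The error after a log2 fold change is its SE.

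Most of the machinery was measurable. Of the 48 symbols with a count, 40 had one in all 41 libraries, and 42 to 43 passed the filter on low counts in each comparison of HT with NT. All members of TFIIB, TFIIE, TFIIF and TFIIH were detected, as were the 5 subunits that RNA polymerase II shares with polymerases I and III (POLR2E, POLR2F, POLR2H, POLR2K and POLR2L). The polymerase's own subunits were less complete. POLR2A, POLR2B, POLR2D and POLR2G were tested, whereas POLR2C (226 counts over all libraries), POLR2I (68 counts) and POLR2J (41 counts) were removed by the filter in every comparison of HT with NT. TAF6, a core subunit of TFIID (315 counts), and TAF1L (109 counts) were removed as well, and GTF2H2 (407 counts) was removed at ZT01 only.

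The 20 symbols at 0 were all 13 TAF11-like symbols from TAF11L2 to TAF11L14, the POLR2J copies POLR2J2, POLR2J3 and POLR2J3-ENSP00000483328, the germ cell forms GTF2A1L and TAF7L, POLR2M and TAF10. TAF10 is a core subunit of both TFIID and the co-activator SAGA, and it is listed here at 0. A count of 0 allows up to 3 counts in a library, and covers counting error only. Whether a contig of the assembly carried the TAF10 or POLR2M sequence was not tested.

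Several members are close copies of each other, and the symbols are human names given to hamster contigs by protein similarity, so reads could have been split between them. At ZT04, TAF9 differed by 0.01 ± 0.18 on the log2 scale between HT and NT and its paralog TAF9B by -0.40 ± 0.44. TAF4 differed by 0.08 ± 0.21 and TAF4B by 0.26 ± 0.35. In the same animals TAF5 differed by -0.12 ± 0.24 and TAF5L, its form in SAGA, by 0.24 ± 0.17. TAF6L, the SAGA form of TAF6, differed by 0.16 ± 0.20. For the TFIIH subunit p44, GTF2H2 differed by 0.43 ± 0.78 and its copy GTF2H2C by 0.30 ± 0.45. None of these differences passed the test.

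At torpor nadir (ZT04) no member passed the test, and the lowest p-values belonged to GTF2E1, TAF7 and POLR2B, each with all HT animals below all NT animals. POLR2A, the largest subunit of the polymerase, which carries the C-terminal repeat domain, had 14.5, 14.3, 18.7, 11 and 16.9 CPM in HT and 17.2, 12.5, 15.4 and 15.8 CPM in NT. The groups overlapped over nearly their whole range, with a log2 fold change of -0.03 ± 0.19 (edgeR, adjusted p = 0.964). POLR2B, which forms the active centre together with POLR2A, had 3.78, 3.44, 4.15, 2.17 and 3.64 CPM in HT, against 6.66, 5.78, 5.41 and 5.65 CPM in NT. Every HT value was below every NT value, but the log2 fold change of -0.78 ± 0.19 did not pass the adjustment (adjusted p = 0.0837).

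The ratio of POLR2B to POLR2A counts within a library needs no scaling between libraries. This measure was added after the values had been seen. Its log2 averaged -2.14 ± 0.15 in HT and -1.37 ± 0.18 in NT at ZT04 (SD, n = 5 and n = 4), a difference of -0.78 with an exact permutation p of 0.00794, the smallest this design allows. At ZT07 it averaged -2.02 ± 0.22 in HT and -1.38 ± 0.16 in NT (SD, n = 4 each), a difference of -0.64 (exact p = 0.0286, again the smallest possible). Without HT ZT07 replicates 1 and 2, the HT values at ZT07 were -2.23 and -1.96, against -1.52 to -1.16 in NT. In both comparisons the groups did not overlap. At ZT01 and ZT16 the differences were -0.22 (exact p = 0.119) and 0.14 (exact p = 0.4). Adjusted over the 8 ratio tests, the lowest p was 0.0635, so none passed. With groups of this size, a single fully separated ratio at ZT04 or ZT07 cannot pass that adjustment by itself. The adjustment also does not cover the choice of these genes after their values were seen.

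**Figure D1:**
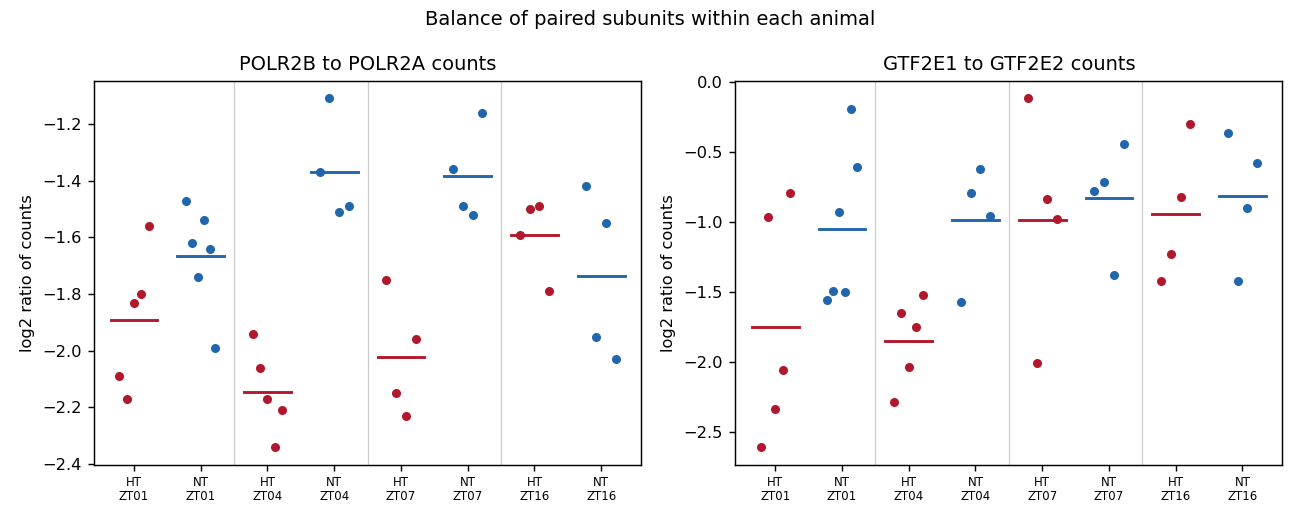
Log2 ratio of counts of POLR2B to POLR2A (left) and of GTF2E1 to GTF2E2 (right) in each HT (red) and NT (blue) animal at the 4 sampling times; points are animals and bars group means. The POLR2B to POLR2A ratio runs from -2.34 to -1.94 in HT and from -1.51 to -1.11 in NT at ZT04, and the groups overlap at ZT01 and ZT16.

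A subunit of TFIIE, the factor that recruits TFIIH, had the lowest p among the members at ZT04. This was GTF2E1, the alpha subunit, with 0.388, 0.497, 0.343, 0.456 and 0.552 CPM in HT, against 0.740, 1.18, 1.37 and 1.30 CPM in NT. The groups did not overlap, and the log2 fold change was -1.37 ± 0.31 (edgeR, adjusted p = 0.0721). GTF2E2, the beta subunit, had 1.89, 1.56, 1.41, 1.54 and 1.59 CPM in HT, against 2.20, 2.03, 2.11 and 2.52 CPM in NT. These groups did not overlap either, by a smaller distance (-0.49 ± 0.19, adjusted p = 0.239). The log2 ratio of GTF2E1 to GTF2E2 counts was lower by 0.87 in HT on average, at -1.85 ± 0.31 in HT and -0.98 ± 0.41 in NT (SD, n = 5 and n = 4, exact permutation p = 0.0159, 0.0635 after adjustment over the 8 ratio tests).

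Among the TAFs, TAF7 and TAF13 had the lowest p-values at ZT04. TAF7, which binds TAF1 and restrains its acetyltransferase activity, had 1.48, 2.01, 2.06, 1.68 and 2.09 CPM in HT, against 3.38, 3.26, 2.92 and 3.02 CPM in NT. All 5 HT animals were lower than all 4 NT animals (-0.76 ± 0.18, edgeR, adjusted p = 0.0766). TAF13, the histone-fold partner of TAF11, had 1.6, 1.65, 1.94, 2.57 and 1.24 CPM in HT, against 4.21, 3.75, 2.71 and 2.56 CPM in NT. Here 1 HT animal just reached the NT range (-0.88 ± 0.24, adjusted p = 0.115). TAF8, which joins TAF2 to the core of TFIID, went the other way, with 10.2, 7.87, 10.5, 8.21 and 11.6 CPM in HT, against 4.25, 7.44, 7.66 and 6.53 CPM in NT. The groups did not overlap, and the difference did not pass (0.57 ± 0.20, adjusted p = 0.199). The remaining members of the 8 with the lowest p were TAF1C of the polymerase I factor SL1 (1.17 ± 0.40, adjusted p = 0.181) and GTF2A1, the large TFIIA subunit (-0.56 ± 0.23, adjusted p = 0.266). TBP differed by -0.18 ± 0.26 and GTF2B by -0.10 on the log2 scale.

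No member of the 43 tested was called at ZT04 by edgeR, where 0.447% of all symbols were called. At an unadjusted p under 0.05 there were 9 members (3 higher and 6 lower) against 15.2% of all symbols, and 5 members had groups that did not overlap, against 7.37% of all symbols. DESeq2 called 4 members (GTF2E1, TAF7, POLR2B and TAF13), with 4.64% of all symbols called, and a fit that shared the spread over all 41 libraries called these 4 and TAF8, with 5.8% of all symbols called. The median log2 fold change of the members was -0.07, against -0.01 over all symbols tested. When 36 animals were fitted together with a sex term, GTF2E1, POLR2B, TAF7 and TAF8 were called at ZT04, with 4.18% of all symbols called. With sex as a covariate in the ZT04 animals alone, GTF2E1, TAF7, POLR2B, TAF13 and TAF8 kept their direction. None of them was called (GTF2E1, -1.37, edgeR, adjusted p = 0.477), and only 0.00952% of all symbols were. All 4 NT animals there were male, against 2 of 5 HT animals, so the torpor term rested on few animals of the same sex. In the same animals the summed level of the natural killer and cytotoxic cell markers was 32.9 to 63.2 CPM in HT and 52 to 117 CPM in NT, and 2 of 9 of those genes were called lower. No gene of the list was at 0 throughout, and its part in the members' differences was not tested.

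**Figure D2:**
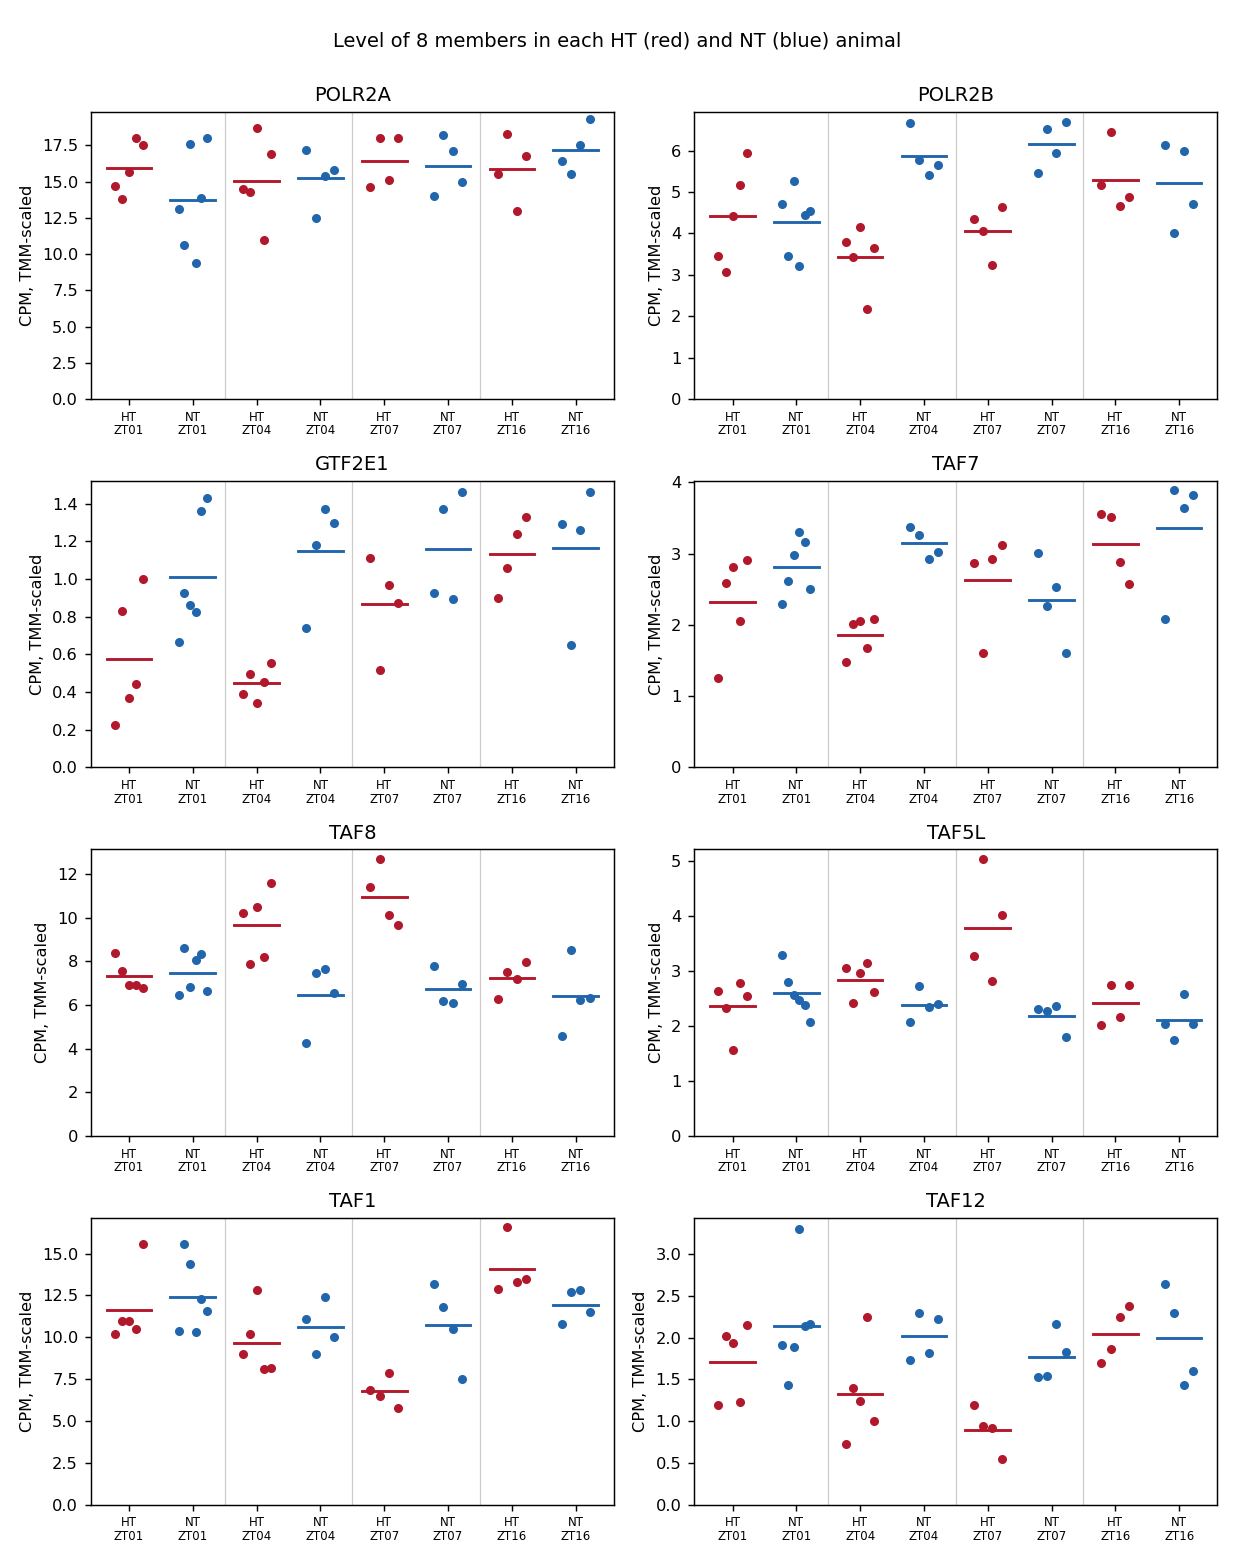
CPM (TMM-scaled) of 8 members in each HT (red) and NT (blue) animal at ZT01, ZT04, ZT07 and ZT16; points are animals and bars group means. POLR2A overlaps at every time, POLR2B separates at ZT04 and ZT07, GTF2E1 and TAF7 separate at ZT04, TAF8 at ZT04 and ZT07, TAF5L and TAF12 at ZT07, and TAF1 at ZT16.

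During arousal (ZT07) 5 members differed between HT and NT animals: TAF8 and TAF5L were higher in HT, and POLR2B, TAF12 and TAF1 were lower. TAF8 had 11.4, 12.7, 10.1 and 9.65 CPM in HT, against 7.79, 6.18, 6.07 and 6.96 CPM in NT. The groups were far apart, with a log2 fold change of 0.68 ± 0.15 (edgeR, adjusted p = 0.0174). TAF5L, which replaces TAF5 in SAGA, had 3.27, 5.04, 2.82 and 4.02 CPM in HT, against 2.31, 2.27, 2.36 and 1.80 CPM in NT. The highest HT animal was replicate 2, and all 4 lay above NT (0.77 ± 0.19, adjusted p = 0.0289).

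POLR2B had 4.35, 4.05, 3.23 and 4.63 CPM in HT, against 5.45, 6.51, 5.94 and 6.70 CPM in NT. As at the nadir, no HT animal reached the NT range (-0.62 ± 0.15, edgeR, adjusted p = 0.0266), and POLR2A did not differ beyond its error (0.01 ± 0.14, adjusted p = 0.972). TAF12, a histone-fold subunit that TFIID and SAGA share, had 1.19, 0.943, 0.922 and 0.541 CPM in HT, against 1.53, 1.54, 2.16 and 1.83 CPM in NT. The groups were separate, and the difference was the largest of the 5 (-0.99 ± 0.25, adjusted p = 0.0334). TAF1, the largest TAF and the scaffold of TFIID, had 6.86, 6.51, 7.88 and 5.80 CPM in HT, against 13.2, 11.8, 10.5 and 7.51 CPM in NT. NT replicate 4 lay inside the HT range (-0.69 ± 0.19, adjusted p = 0.0391).

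The next members at ZT07 did not pass the test. GTF2B, the TFIIB protein that bridges TBP and the polymerase, had 4.38, 3.89, 3.57 and 3.07 CPM in HT, against 2.79, 2.33, 2.75 and 2.81 CPM in NT. The groups did not overlap (0.46 ± 0.15, edgeR, adjusted p = 0.0752). Within TFIIH the estimates had both signs. GTF2H5 (0.53 ± 0.18, adjusted p = 0.0815) and GTF2H1 (0.51 ± 0.21, adjusted p = 0.135) were above 0, and GTF2H4, the p52 subunit that anchors the helicase ERCC3, was below 0 (-0.75 ± 0.31, adjusted p = 0.142). The 5 shared polymerase subunits were all below 0, with a median of -0.22 on the log2 scale, and none was called. Without HT ZT07 replicates 1 and 2 the differences were 0.30 for GTF2B, 0.64 for GTF2H5, 0.65 for GTF2H1 and -0.53 for GTF2H4, and 4 of the 5 shared subunits were below 0, with a median of -0.13. TBP differed by 0.28 ± 0.20 and GTF2E1 by -0.45 on the log2 scale.

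These 5 calls among 43 members tested are a share of 11.6%, close to the 10.4% of all symbols called at ZT07. By direction, 2 members were higher in HT, against 5.72% of all symbols, and 3 were lower, against 4.65% of all symbols. The groups of 7 members did not overlap, against 19.1% of all symbols. DESeq2 called the same 5 members, with 15.4% of all symbols called. With the labelled sex as a covariate 4 were called, with 8.34% of all symbols, and TAF1 was not (-0.68, edgeR, adjusted p = 0.0501). That fit kept the labels of HT ZT07 replicates 1 and 2, which their UTY counts went against. A fit of all 41 libraries and one of the 36 HT and NT animals with a sex term each called 6, the 5 and GTF2B, with 12.3% and 10.7% of all symbols called. The median over the members was 0.01, against -0.04 over all symbols.

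The calls at ZT07 rested on few animals. Without HT ZT07 replicates 1 and 2, whose UTY counts went against their labels, no member was called by edgeR and 37 symbols (0.333% of all symbols) were called in all. The log2 fold changes then were 0.54 for TAF8, 0.63 for TAF5L, -0.66 for POLR2B, -1.27 for TAF12 and -0.66 for TAF1. No member was called without HT ZT07 replicate 2 alone or without NT ZT07 replicate 3 alone, only TAF8 without NT ZT07 replicate 2, only TAF8 and POLR2B without HT ZT07 replicate 4 or NT ZT07 replicate 1, and only TAF8 and TAF1 without NT ZT07 replicate 4. TAF1 was lost without HT ZT07 replicate 1, and POLR2B and TAF12 without HT ZT07 replicate 3, where POLR2E was called. The direction of the 5 was the same in all of these fits. Over all symbols, the fits with 1 animal left out called 410 to 968, against 1119 with all animals. Neutrophil markers summed to 13.7 to 30.1 CPM in HT and 7.68 to 15.6 CPM in NT at ZT07, with 2 of 8 tested genes called higher. Natural killer and cytotoxic markers summed to 34.1 to 64.1 CPM in HT and 34.9 to 92.8 CPM in NT, with 3 of 9 called lower, and erythroid markers to 7480 to 14100 CPM in HT and 9630 to 13700 CPM in NT, with 1 of 12 called lower. Their part in the members' differences at ZT07 was not tested.

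**Figure D3:**
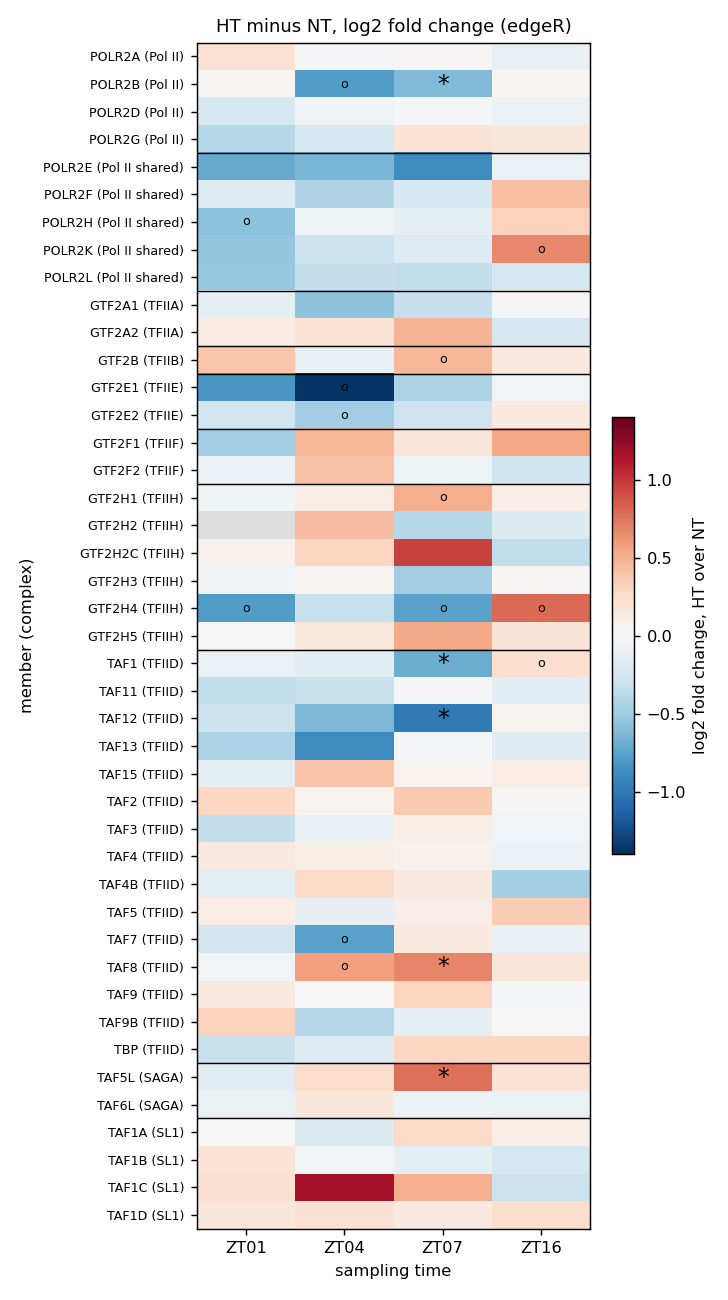
Log2 fold change of HT over NT from edgeR for each tested member (rows, by complex) at the 4 sampling times (columns); a star marks a call at an adjusted p under 0.05, a circle a member that was not called but whose HT and NT values did not overlap, and grey a member removed by the filter. The 5 stars all stand in the ZT07 column.

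At torpor entry (ZT01) no member of 42 tested was called, and neither was any other symbol (0% of all symbols). At an unadjusted p under 0.05 there were 5 members, 1 higher and 4 lower, against 7.68% of all symbols, and DESeq2 called no member and 0.114% of all symbols. GTF2H4 had 0.552, 0.789, 0.559, 0.589 and 0.827 CPM in HT, while the 6 NT animals ran from 0.997 over a median of 1.12 to 1.33 CPM. The groups did not overlap (-0.78 ± 0.23, edgeR, adjusted p = 0.585). POLR2H, a shared subunit, had 1.58, 1.53, 1.80, 1.35 and 1.76 CPM in HT, and NT ran from 1.81 to 3.12 CPM. These were the only members that separated the groups, against 0.809% of all symbols. The other members of the 8 with the lowest p were GTF2B (0.38 ± 0.15), GTF2F1 of TFIIF (-0.48 ± 0.21), GTF2E1 (-0.81 ± 0.37), POLR2K (-0.54 ± 0.26), POLR2G of the polymerase stalk (-0.40 ± 0.19) and POLR2E (-0.71 ± 0.35). All 5 shared polymerase subunits lay below 0, with a median of -0.54, where 51.7% of all symbols lay below 0. NT ZT01 replicate 4 had the highest value of all 41 libraries for POLR2E, POLR2H, POLR2K and POLR2L. With single animals left out, the difference of POLR2E ran from -0.85 to -0.352. The median over all members was -0.11, against -0.01 over all symbols. POLR2A differed by 0.21 ± 0.17, POLR2B by 0.04 ± 0.19 and TBP by -0.31 ± 0.22.

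The shared subunit POLR2E, a small subunit common to polymerases I, II and III, varied widely between animals. Its highest value, 68.6 CPM, was in NT ZT01 replicate 4, and the next highest, 51.4 CPM, in NT ZT04 replicate 2, against 6.58 to 44.9 CPM in the other libraries. These were also the 2 libraries with the largest haemoglobin shares (93.0 and 93.8%). POLR2L had its 2 highest values in the same animals, 5.73 and 5.03 CPM, against 0.934 to 2.94 CPM elsewhere, and so did POLR2G, with 5.92 and 4.98 CPM against 2.26 to 4.78 CPM. No other member had its 2 highest values there. The part of the erythroid fraction in this was not tested.

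**Figure D4:**
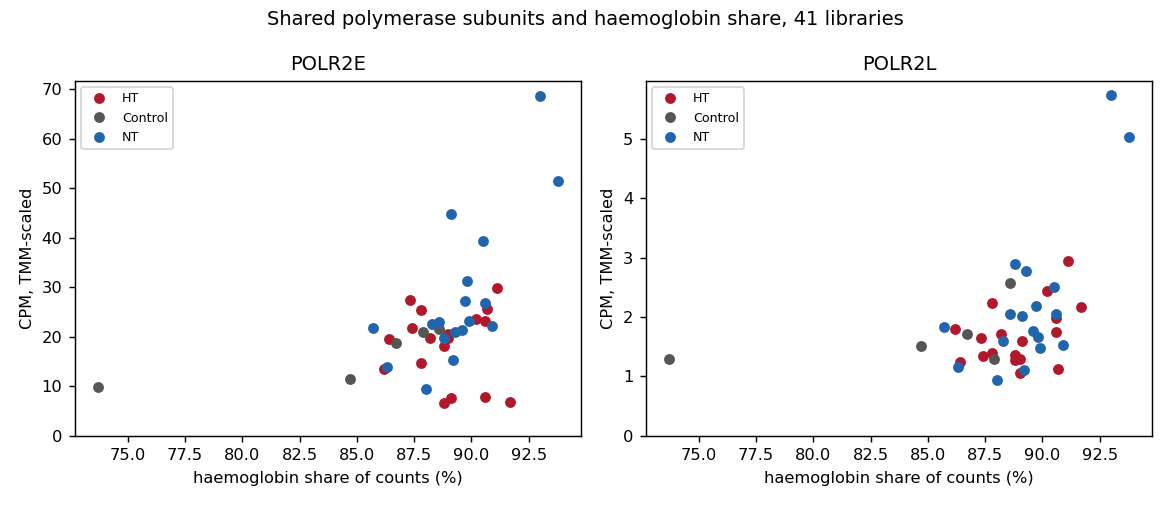
CPM (TMM-scaled) of the shared subunits POLR2E (left) and POLR2L (right) against the haemoglobin share of all counts in percent, for 41 libraries of HT (red), never-torpor control (grey) and NT (blue) animals. The 2 NT libraries at 93.0 and 93.8% haemoglobin have the highest values of both genes.

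After torpor (ZT16) no member of 43 tested was called, and 0.0187% of all symbols were. At an unadjusted p under 0.05 there were 3 members, all higher in HT, against 7.18% of all symbols. DESeq2, which left most members without an adjusted p, called no member and 0.934% of all symbols. GTF2H4 had 1.13, 1, 0.948 and 1.15 CPM in HT, against 0.584, 0.648, 0.53 and 0.669 CPM in NT, so that its groups stood apart with the sign opposite to that at ZT01 (0.80 ± 0.24, edgeR, adjusted p = 0.521). POLR2K had 1.47, 2.07, 1.65 and 1.65 CPM in HT, against 1.41, 1.26, 0.778 and 0.881 CPM in NT (0.67 ± 0.23, adjusted p = 0.554). With TAF1 (0.24 ± 0.14) these were the 3 members whose groups did not overlap, against 4.04% of all symbols. GTF2F1 (0.55 ± 0.23), POLR2F (0.42 ± 0.23), TAF4B (-0.47 ± 0.29), TAF5 (0.35 ± 0.22) and POLR2H (0.32 ± 0.21) completed the 8 with the lowest p. The 3 members of lowest p at the nadir did not differ beyond their error at ZT16. POLR2B differed by 0.03 ± 0.17. TAF7 had 3.56, 3.51, 2.88 and 2.57 CPM in HT against 2.09, 3.89, 3.64 and 3.82 CPM in NT (-0.10 ± 0.21). GTF2E1 had 0.900, 1.06, 1.24 and 1.33 CPM in HT against 1.29, 0.648, 1.26 and 1.46 CPM in NT (-0.04 ± 0.27). POLR2A differed by -0.10, TBP by 0.28 and GTF2B by 0.14 on the log2 scale. The haemoglobin share averaged 87.5% in HT and 89.5% in NT at ZT16, and its part here was not tested.

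Whether the difference between HT and NT at the nadir differed from that at another time was tested with interaction terms over the 36 animals. No member of 45 was called. For ZT04 minus ZT01, where 0% of all symbols were called by edgeR and 0.0697% by DESeq2, 5 members had an unadjusted p under 0.05, against 7.52% of all symbols, led by POLR2B (-0.82 ± 0.25), TAF8 (0.61 ± 0.22), TAF15 (0.53 ± 0.20) and GTF2B (-0.49 ± 0.19). For ZT04 minus ZT07 (0% of all symbols by edgeR, 0.0262% by DESeq2) there were 5, against 6.63% of all symbols, led by TAF7 (-0.88 ± 0.31), GTF2B (-0.55 ± 0.21) and TAF13 (-0.85 ± 0.37). For ZT04 minus ZT16 (0.331% of all symbols by edgeR, 1.32% by DESeq2) there were 8, against 11.8% of all symbols, led by POLR2B (-0.80 ± 0.27), GTF2E1 (-1.33 ± 0.46), GTF2H4 (-1.09 ± 0.38), POLR2F (-0.83 ± 0.30), POLR2K (-0.96 ± 0.37) and GTF2E2 (-0.63 ± 0.26). DESeq2 called no member in any of the 3. The HT minus NT difference of POLR2B at the nadir was not shown to differ from that at arousal.

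The same test with ZT07 in the place of ZT04 was added after the calls at ZT07 had been seen. The HT minus NT difference of GTF2H4 was lower at ZT07 than at ZT16 by 1.56 ± 0.39 on the log2 scale (edgeR, adjusted p = 0.0268), and that of TAF1 by 0.93 ± 0.25 (adjusted p = 0.0395). In this comparison 2.35% of all symbols were called, and 9 members had an unadjusted p under 0.05, against 15.9% of all symbols. With sex as a covariate the differences were -1.62 for GTF2H4 (edgeR, adjusted p = 0.0711) and -0.94 for TAF1 (adjusted p = 0.114), so that the estimates were close to those above and neither was called. Without HT ZT07 replicates 1 and 2 they were -1.31 (adjusted p = 0.151) and -0.89 (adjusted p = 0.17). GTF2H4 was lost without HT ZT07 replicate 2, NT ZT07 replicate 4, HT ZT16 replicate 4 or NT ZT16 replicate 3, and TAF1 without any 1 of the ZT07 and ZT16 animals other than HT ZT07 replicate 3, HT ZT16 replicate 1 and NT ZT07 replicate 4. For ZT07 minus ZT01 no member was called, against 0.514% of all symbols, and 6 members had an unadjusted p under 0.05, against 12.4% of all symbols. TAF5L came closest (0.91 ± 0.24, adjusted p = 0.0639), and it was the 1 member DESeq2 called there, with 2.28% of all symbols called.

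Within the HT animals, levels were compared over the 4 times of the bout. TAF1, TAF8 and TAF12 changed among the times. TAF1 averaged 11.7 ± 2.3 CPM in ZT01 animals, 9.65 ± 1.95 in ZT04 animals, 6.76 ± 0.86 in ZT07 animals and 14.0 ± 1.7 in ZT16 animals (SD, n = 5, 5, 4 and 4), a span of 1.07 on the log2 scale (edgeR F test, adjusted p = 0.00255). The 4 animals at ZT07 had 5.80 to 7.88 CPM and lay below all others, which ran from 8.10 CPM upwards, and those at ZT16 lay at 12.9 CPM or more. TAF8 averaged 7.31 ± 0.67, 9.68 ± 1.6, 11 ± 1.4 and 7.24 ± 0.70 CPM at the same times (span 0.58, adjusted p = 0.0115). TAF12 averaged 1.71 ± 0.45, 1.32 ± 0.58, 0.898 ± 0.267 and 2.05 ± 0.32 CPM (span 1.20, adjusted p = 0.0413). So TAF1 and TAF12 had their lowest means and TAF8 its highest mean at arousal.

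The 3 calls among 45 members tested stand beside 9.85% of all symbols called in this comparison, and 14 members had an unadjusted p under 0.05, against 25.8% of all symbols. DESeq2 called 9 members, the same 3 and GTF2E1, TAF5L, GTF2B, GTF2H3, GTF2H5 and TAF1C, with 17.2% of all symbols called. In edgeR, GTF2E1 stood at the threshold (span 1.34, adjusted p = 0.05), followed by TAF5L (span 0.67, adjusted p = 0.0583) and GTF2B (span 0.54, adjusted p = 0.0625). Without HT ZT07 replicates 1 and 2, TAF1 alone was called (adjusted p = 0.0464), with 3.34% of all symbols called, and TAF8 had an adjusted p of 0.0872. TAF1 and TAF8 were called with each single HT animal left out in turn, TAF12 in 6 of those 18 fits. Over all symbols those fits called 699 to 1260, against 1096 with all HT animals. The ZT16 animals in HT were all female, and with sex as a covariate TAF12 was not called (span 1.11, edgeR, adjusted p = 0.0748) while GTF2H5 was, with 7.7% of all symbols called. Of the natural killer and cytotoxic markers, 5 of 9 were called over the same times, with sums of 48.4 to 130 CPM at entry, 32.9 to 63.2 at the nadir, 34.1 to 64.1 at arousal and 55.2 to 151 after torpor. Of the neutrophil markers 2 of 9 were called, with sums of 15.6 to 64.9 CPM at entry, 8.11 to 96.4 at the nadir, 13.7 to 30.1 at arousal and 14.2 to 30.1 after torpor, and so were 2 of 12 T cell markers and 1 of 6 haemoglobin genes. Their part in the members' course was not tested.

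Within the NT animals no member of 44 was called over the same 4 times by edgeR, where 0% of all symbols were called, and none by DESeq2, which called 0.054% of all symbols. At an unadjusted p under 0.05 there were 6 members, against 4.03% of all symbols: POLR2B, GTF2H4, POLR2H, POLR2K, TAF13 and POLR2F. In time order, POLR2B averaged 4.42 ± 1.18, 3.44 ± 0.76, 4.06 ± 0.61 and 5.29 ± 0.81 CPM in HT (SD, n = 5, 5, 4 and 4). In NT it averaged 4.27 ± 0.79, 5.88 ± 0.54, 6.15 ± 0.57 and 5.21 ± 1.02 CPM (SD, n = 6, 4, 4 and 4), a span of 0.54 on the log2 scale (edgeR, adjusted p = 0.997). The gap between HT and NT at ZT04 and ZT07 therefore lay between a lower HT mean and a higher NT mean than at ZT01. GTF2H4 averaged 0.663 ± 0.133, 0.761 ± 0.249, 0.602 ± 0.202 and 1.06 ± 0.10 CPM in HT. In NT it averaged 1.14 ± 0.14, 0.973 ± 0.426, 1 ± 0.112 and 0.607 ± 0.065 CPM, so its high HT over NT ratio at ZT16 went with the highest HT mean and the lowest NT mean of the 4 times. A fit of the 4 times in each group does not test whether the courses of HT and NT differ.

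The 5 animals that had never shown torpor were compared with NT animals, that is with torpor-capable animals on a day without torpor. TAF15, an RNA-binding protein of the FET family found in part of TFIID, was higher in the controls. It had 8.42, 9.20, 8.30, 9.12 and 11.1 CPM in the controls, while the 18 NT animals had 6.57 to 9.66 CPM (ZT01 animals), 5.09 to 6.69 CPM (ZT04 animals), 5.69 to 7.64 CPM (ZT07 animals) and 6.08 to 8.78 CPM (ZT16 animals). The controls were above all NT animals of ZT04 and ZT07 and overlapped those of ZT01 and ZT16, with a log2 fold change of 0.42 ± 0.10 (edgeR, adjusted p = 0.0181). It was the 1 member called of 45, against 2% of all symbols, and the 1 member that DESeq2 called, against 2.71% of all symbols. TAF1A of SL1 (0.43 ± 0.17), POLR2E (-0.72 ± 0.33), GTF2F2 of TFIIF (0.38 ± 0.18), TAF8 (0.26 ± 0.13) and TAF9 (-0.21 ± 0.11) followed and did not pass. POLR2A, POLR2B, TBP, GTF2B and GTF2E1 did not pass either, and the median over the members was 0.09, against 0.02 over all symbols.

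The TAF15 difference kept its sign, and its call was lost, without each of 2 controls and against 3 of the 4 NT times. Its highest value, 11.1 CPM, was in control replicate 5, whose haemoglobin share of 73.7% was the lowest of all libraries, and without that animal the log2 fold change of TAF15 was 0.36 (edgeR, adjusted p = 0.124). Without control replicate 4 it was 0.43 (adjusted p = 0.0509). Against NT animals of a single time, TAF15 was called for ZT04 only (0.65, adjusted p = 0.0354) and not for ZT01 (0.24, adjusted p = 0.633), ZT07 (0.48, adjusted p = 0.18) or ZT16 (0.37, adjusted p = 0.352). Since the controls have no stated time of day, sex or age, these and the lack of torpor cannot be told apart. UTY had 2, 36, 0, 0 and 10 counts in control replicates 1 to 5, and the part of sex in the TAF15 difference was not tested.

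**Figure D5:**
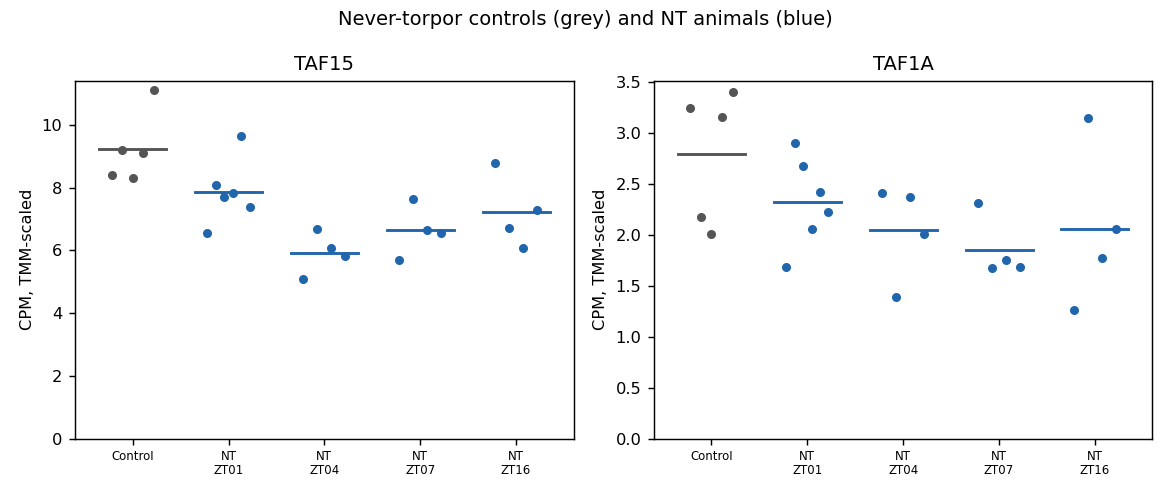
CPM (TMM-scaled) of TAF15 (left) and TAF1A (right) in 5 never-torpor controls (grey) and in NT animals (blue) at ZT01, ZT04, ZT07 and ZT16; points are animals and bars group means. The controls run from 8.30 to 11.1 CPM for TAF15, and the NT animals from 5.09 to 9.66 CPM.

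The members were set beside 121 other genes of the transcription apparatus: Mediator, the TFIIH kinase and helicases, relatives and regulators of TBP, factors of pausing and elongation, phosphatases of the polymerase tail with termination factors, assembly factors, and the own subunits of polymerases I and III. None of these was called at ZT01, ZT04 or ZT16 or between controls and NT (114 to 116 tested). At ZT01, ZT04 and ZT16, 6 of 114, 16 of 115 and 13 of 114 had an unadjusted p under 0.05. Of all symbols, 7.68%, 15.2% and 7.18% did. At ZT07, 16 of 115 were called (13.9%, against 10.4% of all symbols), 11 higher and 5 lower. Without HT ZT07 replicates 1 and 2 none of 116 was called by edgeR, and the 16 kept their sign with log2 fold changes of at least 0.41 in size.

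Mediator is the co-activator between activators and the polymerase. Of its genes, 5 of 32 were called higher in HT at ZT07 and none lower, against 5.72% of all symbols called higher. They were MED20 (1.01 ± 0.16), CCNC (0.84 ± 0.17), MED12 (0.59 ± 0.16), MED13L (0.56 ± 0.14) and CDK19 (0.50 ± 0.14). CCNC, CDK19, MED12 and MED13L belong to the kinase module of Mediator. Of 32 pausing and elongation genes, CCNT1, the cyclin of the elongation kinase P-TEFb, was higher in HT by 1.56 ± 0.30. Also higher were AFF4 (0.97 ± 0.24) of the super elongation complex, the elongation factor TCEA1 (0.57 ± 0.15) and CDK13 (0.48 ± 0.13), a kinase of the polymerase tail. HEXIM1, the inhibitor of P-TEFb, was lower in HT by 0.90 ± 0.17 on the log2 scale. The other tested genes of pausing and elongation were not called. DR1, a repressor that binds TBP, was higher in HT by 2.01 ± 0.57, and RPRD1A, which binds the polymerase tail, by 0.88 ± 0.18. ERCC2, a TFIIH helicase, was lower in HT by 0.53 ± 0.14. Of the own subunits of polymerases I and III, POLR1A (-0.75 ± 0.20) and POLR3GL (-0.73 ± 0.21) were lower.

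At ZT04 the same lists held no call, and the 2 genes of lowest p in each were MED13L (0.77 ± 0.21) and MED12 (0.73 ± 0.23), CCNT1 (1.18 ± 0.37) and HEXIM1 (-0.53 ± 0.19), RPRD1A (0.69 ± 0.18) and CLP1 (-0.96 ± 0.30), POLR3D (-1.10 ± 0.29) and POLR1B (-0.63 ± 0.22), DR1 (2.29 ± 0.78) and DRAP1 (0.32 ± 0.39), ERCC3 (0.30 ± 0.21) and ERCC2 (0.30 ± 0.26), and RPAP1 (0.30 ± 0.27) and GPN3 (0.17 ± 0.18). Among the 4 times in HT, 13 of 115 genes were called (11.3%), against 9.85% of all symbols and 3 of the 45 members.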

How the data were processed

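Per the labels and the study's methods, RNA of frozen blood pellets was reverse transcribed with random primers and sequenced in pairs. After trimming, the authors built a de novo assembly from the reads of all samples, gave each contig a human gene symbol by protein similarity, aligned the reads to the assembly with HISAT2 and counted them. The deposited values are raw counts per symbol. Of the counts from 1 to 49, 67.45% were even (61.8% among the members), so small counts may not each be a separate fragment. No column was left unmapped (0). None of the 820 library pairs was a duplicate (smallest chi-square per degree of freedom 8.41).

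HT and NT were compared at each time in a fit of those animals with edgeR 4.0.16 (R 4.3.3): TMM, filterByExpr (minimum count 10, minimum total 15), glmQLFit and glmQLFTest, with Benjamini-Hochberg adjustment over all symbols and a threshold of 0.05. The study's DESeq2 (1.42.0) test is an alternative, as is limma (3.58.1) voom. DESeq2's empty adjusted p-values stayed empty. Spans over 4 times come from an F test. The SE is the log2 fold change over the root of F. CPM used TMM factors over all 41 libraries. Fits were tested on simulated counts with known changes, 50 genes per fold. At ZT04 they called 2 of 50 changes of 1.5-fold, 18 of 2-fold and 43 of 4-fold. At ZT07 these were 2, 20 and 45, and for ZT04 minus ZT07 they were 0, 12 and 34. A member that was not called may therefore still differ.

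The members and lists were chosen with earlier results of these data known. Named were the 8 members of lowest p in each comparison of HT with NT, the 6 in other comparisons, all called members, POLR2A, POLR2B, TBP, GTF2B and GTF2E1, members not detected or filtered out, and paralog pairs, and of the other transcription genes every one called (1 is not reported here) and the 2 of lowest p per list at ZT04. The count ratios, the ZT07 interactions, the values of TAF7 at ZT16 and the courses of GTF2H4 were added after their values were seen. So were POLR2G, POLR2H, POLR2K and POLR2L in the libraries rich in haemoglobin. No genome or sequence table was used here.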

Additional observations from a re-analysis of the deposited data

Results flagged for a closer look

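The difference between HT and NT was itself different between arousal and the time after torpor for 2 members. In this comparison, added after the calls at ZT07 had been seen, 2.35% of all symbols were called. The log2 fold change of GTF2H4 at ZT07 minus that at ZT16 was -1.56, and that of TAF1 was -0.93 (edgeR interaction terms, adjusted p = 0.0268 and 0.0395). Sex is separated between HT and NT at ZT16, and with sex as a covariate the values were -1.62 and -0.94 and neither passed (edgeR, adjusted p = 0.0711 and 0.114). Neither passed without HT ZT07 replicates 1 and 2 (-1.31 and -0.89, edgeR, adjusted p = 0.151 and 0.17).

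Single animals stood far from the rest of their group for a named member in 9 of the 97 gene and group pairs looked at, by Dixon's 95% limit. Chance alone flags about 1 in 20, here about 5. On the low side, TBP had 0.602 CPM in HT ZT01 replicate 1 (others 1.14 to 1.22), TAF5L 1.80 in NT ZT07 replicate 4 (others 2.27 to 2.36), GTF2B 2.33 in NT ZT07 replicate 2 (others 2.75 to 2.81), POLR2H 1.42 in HT ZT16 replicate 1 (others 2.37 to 2.49) and GTF2F1 1.45 in NT ZT16 replicate 3 (others 2.38 to 2.54). On the high side, POLR2E had 68.6 CPM in NT ZT01 replicate 4 (others 15.3 to 31.3), TBP 1.71 in NT ZT01 replicate 5 (others 1.13 to 1.30), GTF2A1 6.66 in NT ZT04 replicate 1 (others 3.96 to 4.37) and TAF1 16.6 in HT ZT16 replicate 2 (others 12.9 to 13.5).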

How the results depend on the processing

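At ZT04 the count of members called moved from 0 in edgeR to 4 with DESeq2, 3 with limma voom (2.45% of all symbols called), 5 with all 41 libraries in the fit (5.8%) and 4 with 36 animals and a sex term (4.18%). The study's cut-offs on unadjusted p and fold were applied here to the edgeR fits, where the study used DESeq2. ZT01 then gave 5 members (7.24% of all symbols), ZT04 gave 9 (15.2%), ZT07 gave 10 (27.2%) and ZT16 gave 3 (6.95%). With single animals left out, the count of members called was 0 to 0 at ZT01, ZT04 and ZT16 and 0 to 4 at ZT07. It was 0 to 1 for ZT07 minus ZT01, 0 to 2 for ZT07 minus ZT16, 2 to 4 over the times in HT and 0 to 1 for controls against NT. Over all symbols these fits called 0 to 0 at ZT01, 2 to 34 at ZT04, 410 to 968 at ZT07 and 2 to 4 at ZT16. They called 29 to 105 symbols for ZT07 minus ZT01 and 101 to 305 for ZT07 minus ZT16. Over the times in HT it was 699 to 1260 symbols, and for controls against NT 207 to 242. For ZT07 minus ZT16 the count of 2 members became 1 without the low-count filter (1.27% of all symbols called). It became 0 with a sex term (0.654%) or without HT ZT07 replicates 1 and 2 (0.381%). For ZT07 minus ZT01 DESeq2 gave 1 (2.28%). Over the times in HT the count of members was 9 with DESeq2 (17.2% of all symbols) and 1 without HT ZT07 replicates 1 and 2 (3.34%). The count for controls against NT was 0 with NT animals of ZT01, ZT07 or ZT16 alone (1.99%, 1.46% and 1.93% of all symbols). It was also 0 without the control of lowest haemoglobin share (1.84%). Causes were not tested.

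The replicate numbers are shared between HT and NT, and the main fits treat the animals as unpaired. At no time was every pair's correlation over 0.1 (from -0.18 to 0.22 over the 4 times). This check cannot exclude that animals with the same number belong together. Pairs over 0.1 were 2 of 5 (ZT01), 2 of 4 (ZT04), 3 of 4 (ZT07) and 0 of 4 (ZT16), and 2, 3, 2 and 1 animals correlated best with their own number at these times. With the replicate number as a block, 5 members were called at ZT07 (8.99% of all symbols) and 3 over the times in HT (10.7%). For controls against NT it was 0 (1.93% of all symbols, TAF15, edgeR, adjusted p = 0.0811). TAF12 gave way to GTF2E1 over the times in HT. The block changed no other count of members called.

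Signs were followed for the members of lowest p and for POLR2A, POLR2B, TBP, GTF2B and GTF2E1. In the ZT07 interactions they were followed for the called members only. Among the members followed, signs turned only for estimates near 0. They did so for POLR2B with limma voom (-0.0183 at ZT01, -0.00634 at ZT16), GTF2B with a sex term at ZT04 (0.0167) or with NT ZT04 as the reference of the controls (-0.148), GTF2E1 with the block at ZT16 (0.00346), and, for the controls, POLR2B against NT ZT07 (-0.0619), TBP against NT ZT01 (-0.0683) and POLR2A against NT ZT16 (-0.0814). With single animals left out, POLR2B ran from -0.0908 to 0.15 at ZT01 and -0.0841 to 0.109 at ZT16, GTF2E1 from -0.239 to 0.0936 at ZT16, POLR2A from -0.116 to 0.0791 at ZT04, from -0.0478 to 0.0776 at ZT07, from -0.126 to 0.065 for ZT04 minus ZT07 and from -0.0161 to 0.175 for ZT04 minus ZT16, and TBP from -0.0203 to 0.242 for ZT04 minus ZT01 and -0.0495 to 0.192 for controls against NT. RLE size factors, halved counts and leaving out haemoglobin genes kept each count of calls within 1.5 times.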
